A study of Rattus norvegicus with 9 samples.

Results

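Untreated synovial fibroblasts of the rat, kept in normal culture without the inflammatory cytokine IL-1β, were described from their 3 control libraries, out of 9 in the series. The members were chosen by the sample titles, which name routine culture and no IL-1β, and the 6 other libraries (cells given IL-1β, with or without dermal fibroblasts in a transwell) were not used, so no groups were compared. In the transwell of the series, synovial fibroblasts sat in the lower chamber, and the design text does not say whether control cells had an empty insert above them. The labels give the genotype as WT and the source as pieces of synovium digested with collagenase I and DNase I. They give no strain, age, sex or passage, and do not say whether the 3 libraries came from separate animals or cultures, so the spread between them may be technical. The table holds 17298 genes, all of the mRNA type, as FPKM (fragments per kilobase of transcript, scaled to the library's mapped fragments), so a level per length and per library. Values below are FPKM, with the mean ± SD over the 3 libraries where an error is given, ranks are by mean FPKM among the 17298 genes, and a gene is called detected at a mean of at least 1 FPKM.

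The synovium lines the joint cavity. Its fibroblasts form a lining layer, which secretes hyaluronan and the lubricating proteoglycan lubricin (Prg4) into the joint fluid, over a sublining layer of looser connective tissue in which the surface protein Thy1 is a known marker. In culture these cells attach, divide and lay down collagen and fibronectin, and they carry receptors for cytokines and growth factors that matter in arthritis.

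Promoters of the 6 most abundant genes outside the ribosomal proteins, from the RefSeq table (build GRCr8), are shown first, because they are the starts of the messages with the highest levels. Each line gives 60 bases on the gene's strand, from 45 before the annotated start to 14 after it, and capitals mark the letters TATAAA or TATATAA on either strand, 2 forms of the TATA box at which transcription is known to be positioned. Prg4 is added as the defining gene of the lining layer.
Eef1a1: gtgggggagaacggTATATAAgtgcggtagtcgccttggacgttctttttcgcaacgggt
S100a4: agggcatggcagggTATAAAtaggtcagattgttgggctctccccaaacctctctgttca
S100a6: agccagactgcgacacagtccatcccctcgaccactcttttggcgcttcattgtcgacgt
Vim: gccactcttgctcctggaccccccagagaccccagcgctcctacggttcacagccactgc
Gapdh: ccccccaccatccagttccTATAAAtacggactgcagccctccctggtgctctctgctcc
Tmsb10: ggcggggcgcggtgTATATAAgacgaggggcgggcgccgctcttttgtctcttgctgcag
Prg4: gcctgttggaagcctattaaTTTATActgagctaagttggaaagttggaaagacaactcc
The printed bases lie at chr8:88225055-88225114 (minus strand) for Eef1a1, chr2:178388484-178388543 (plus) for S100a4, chr2:178398492-178398551 (plus) for S100a6, chr17:81577216-81577275 (plus) for Vim, chr4:159652453-159652512 (minus) for Gapdh, chr4:106569126-106569185 (minus) for Tmsb10 and chr13:65054211-65054270 (minus) for Prg4. In Eef1a1, S100a4 and Tmsb10 the marked letters began 31 bases before the start, and in Gapdh 26. In Prg4 the marked letters read TATAAA on the other strand and began 25 bases before the start. S100a6 and Vim held neither motif in the printed bases, which says only that these letters are not there. Within its window of 300 bases Vim did hold TATAAA, and S100a6 did not. On either strand, TATAAA occurred in 14.3% of all 27457 promoter windows of 300 bases and in 3.88% when the 60 bases before the start were searched. TATATAA, which was chosen after these sequences had been seen, occurred in 3.90% and 0.943%, and a window may hold both motifs. The starts of S100a4 and S100a6, which ranked 2 and 3 by level, lie 10008 bases apart on chromosome 2.

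Most of the table was detected, and a small set of genes held most of the summed level. A mean of at least 1 FPKM was reached by 11352 genes (65.6%), at least 10 FPKM by 6779, at least 100 FPKM by 1101 and at least 1000 FPKM by 121. The 10 most abundant genes held 6.94% of the summed FPKM, the top 100 held 32.3 ± 0.297% (SD, n = 3), the top 1000 held 68.9% and the top 5000 held 93.2%. It took 287 to 298 genes, depending on the library, to reach 50% of the sum. At the other end 991 genes were listed at 0 in each of the 3 libraries, and 4955 had a mean above 0 and under 1 FPKM.

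The 3 libraries were close to each other. Their spread describes 1 gene between libraries and does not bound the error of a comparison between genes. Pearson correlations of log2(FPKM + 1) across the 17298 genes were 0.9971 to 0.9976, and Spearman correlations were 0.9880 to 0.9888, where genes are not independent replicates. The median coefficient of variation (SD divided by the mean) was 55.8% for genes above 0 and under 1 FPKM, 6.72% from 1 to 10, 3.43% from 10 to 100, 2.33% from 100 to 1000 and 2.55% at 1000 or more. Levels under 1 FPKM were therefore read as low without an order among them. The sums of FPKM were 679774 to 696329, and the depth of sequencing is unknown.

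Translation genes led the profile. Eef1a1, which brings aminoacyl-tRNA to the ribosome, was the most abundant gene at 6928, 7129 and 7156 FPKM. All 78 ribosomal protein genes with a row were detected, against 65.6% of all genes, and 68 of them had 1000 FPKM or more. Together they made up 19.9 ± 0.443% of the summed FPKM. Rps2 had 4475 ± 94.2 FPKM and Rps29 had 3926 ± 250 FPKM. Among the 121 genes at 1000 FPKM or more, counted by list, the other groups were 14 genes of the lists of cytoskeleton, annexins, S100 proteins and galectins, 9 matrix genes, 6 iron, redox and chaperone genes, 5 glycolytic enzymes, 4 translation factors, 1 gene of protein folding in the endoplasmic reticulum, 2 genes of other lists and 12 genes on no list. A gene found only on a fibroblast marker list counts among the other lists, so the 14 need not hold every gene of their kind. Genes near the top outside translation included Tmsb10 (3814 ± 53.6 FPKM), which binds actin monomers, Actb (3711 ± 53.9 FPKM), cytoplasmic actin, Ftl1 (3701 ± 52.4 FPKM), the light chain of the iron store ferritin, and Lgals1 (2850 ± 22.3 FPKM), a secreted galectin.

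**Figure D1:**
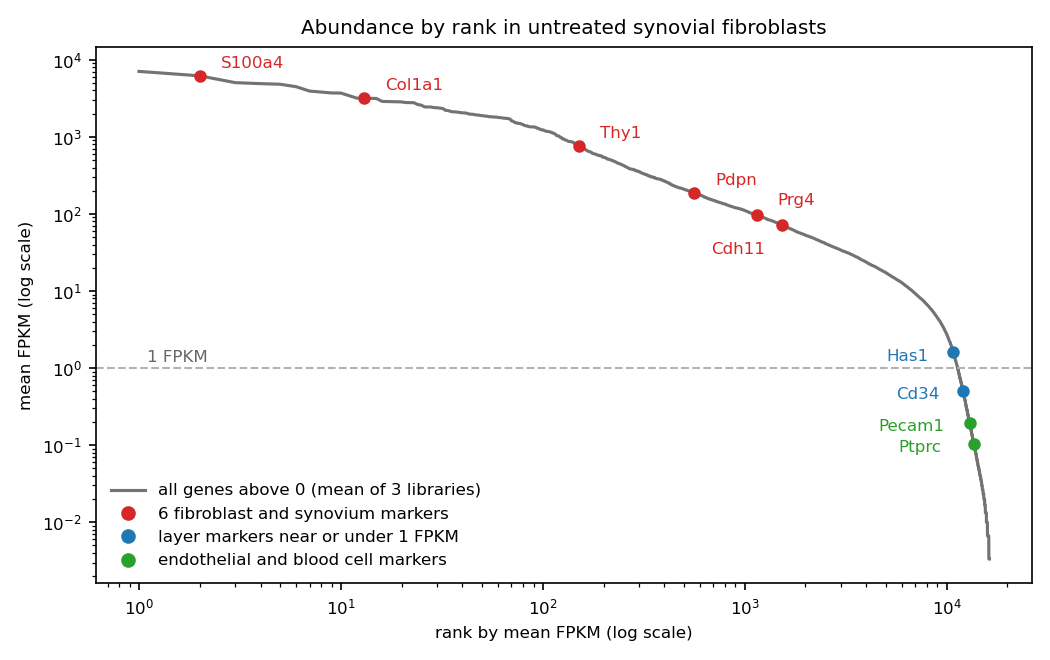
Mean FPKM over the 3 control libraries against rank, both on log axes, for every gene above 0 in the mean (line), with single genes as points. S100a4 and Col1a1 lie in the top 13 genes, Thy1, Pdpn, Prg4 and Cdh11 between ranks 151 and 1534, and Pecam1 and Ptprc fall under the dashed line at 1 FPKM.

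The 6 genes used to check the label were all detected, against 65.6% of all genes, and their order did not overlap in any library. S100a4, a calcium-binding protein of motile and mesenchymal cells, had 6065, 6154 and 6349 FPKM. Col1a1, the α1 chain of type I collagen, had 3227, 3243 and 3039 FPKM and ranked 13. Thy1, the sublining marker, had 766, 772 and 735 FPKM and ranked 151. These 3 genes were therefore within the top 1% of the table. Pdpn, podoplanin, a surface mucin-like protein of lining and activated fibroblasts, had 187, 185 and 187 FPKM and ranked 563. Prg4 had 96.9, 95.8 and 95.8 FPKM and ranked 1148. Cdh11, cadherin-11, the adhesion molecule that joins synovial fibroblasts to each other, had 71.1, 70.6 and 72.7 FPKM and ranked 1534. None of the 6 markers was thus missing from these cells.

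Broader fibroblast genes were also present, with 23 of 24 listed genes detected against 65.6% of all genes in the table. Vim, the intermediate filament of mesenchymal cells, had 4902 ± 52.7 FPKM, and Pdgfra, a growth factor receptor that marks fibroblasts, had 148 ± 1.93 FPKM. Vcam1 (24.5, 23.6 and 26.0 FPKM), an adhesion molecule for leukocytes, Fap (7.86 ± 0.661 FPKM), a surface protease of activated fibroblasts, and Dpt (3.36 ± 0.275 FPKM), dermatopontin, sat far lower. Lrrc15, known from myofibroblasts, was the listed gene under the detection level at 0.75 FPKM.

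Markers of both layers were found in the same RNA, at shares near that of all genes in the table (65.6% detected), and each layer's list had members near 0. Bulk RNA cannot tell fewer cells of a type from less RNA per cell. In the lining list 11 of 15 genes (73.3%) were detected. Besides Prg4, Ugdh, which makes the sugar precursor of hyaluronan, had 233 ± 6.21 FPKM, Has2, a hyaluronan synthase, had 32.8 ± 1.08 FPKM and Cd55, a complement regulator of the lining, had 26.6 ± 1.13 FPKM. The lining genes Clic5, Tspan15, Htra4 and Has3 had means of 0.51, 0.25, 0.22 and 0.16 FPKM. Has2 exceeded the related synthase Has1 (2.11, 1.38 and 1.33 FPKM) in each library, with a ratio of levels of 21.2 ± 4.53. Over hyaluronan and lubrication genes as a whole, 13 of 15 were detected, including Cd44, the hyaluronan receptor, at 136 ± 1.31 FPKM and the hyaluronan-degrading Cemip at 29.6 ± 0.691 FPKM.

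In the sublining list 10 of 14 genes (71.4%) were detected. Cxcl12, a chemokine that retains leukocytes, had 359 ± 1.71 FPKM, Gas6, the ligand of the receptor Axl, had 187 ± 3.44 FPKM, and Col15a1 had 97.3, 101 and 87.1 FPKM. Clec3b, tetranectin, had 4.31, 4.88 and 4.96 FPKM, and Pi16 had 1.79, 1.61 and 1.22 FPKM. The 4 members under the detection level were Cd34 (0.71, 0.34 and 0.46 FPKM), Notch3, a receptor of perivascular cells (0.51, 0.46 and 0.55 FPKM), Dpp4 (0.01 FPKM or less in each library) and Apod, listed at 0 in each. The ratio of Thy1 to Prg4 was 7.91, 8.06 and 7.68, a quantity that differed little between libraries.

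Matrix genes held 5.89 ± 0.133% of the summed FPKM, and 184 of 238 were detected, where 65.6% of all genes in the table were. Among the fibrillar collagens, which form the load-bearing fibres, the order Col1a1, Col3a1, Col1a2, Col5a2, Col5a1, Col2a1, Col11a1, Col5a3, Col27a1 had no overlapping neighbours. Col3a1, the chain of type III collagen, had 1749, 1759 and 1693 FPKM. Col1a2, which joins Col1a1 chains in type I collagen, had 776, 857 and 643 FPKM. Col1a1 exceeded Col1a2 in each library, with a ratio of levels of 4.16, 3.78 and 4.73, so this ratio moved with Col1a2 more than with Col1a1. Col2a1, the main collagen chain of cartilage, had 160, 161 and 150 FPKM and lay above Col11a1 (84.4 ± 1.42 FPKM). Col24a1 and Col11a2 were under 1 FPKM.

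Of the collagens that form networks, beads or bind fibrils, 17 of 31 (54.8%) were detected, against 65.6% of all genes. Col6a1 had 428 ± 8.53 FPKM and Col6a2 378 ± 9.26 FPKM, a ratio of 1.13 ± 0.00542, while Col6a3 had 64.5 ± 2.29 FPKM. Col4a1 and Col4a2, chains of the basement membrane, had 213 ± 7.77 and 158 ± 7.60 FPKM. With them stood the basement membrane genes Nid2 (159 ± 2.22 FPKM), Lamc1 (148 ± 2.63 FPKM), Nid1 (117 ± 1.66 FPKM) and Lama4 (72.4 ± 1.41 FPKM), whereas Lama2, Lama5, Lama1 and Lamc3 were under 1 FPKM. Among the laminin α chains Lama4 was thus the highest, and Lama3 was next at 1.41 FPKM.

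Small leucine-rich proteoglycans, which bind collagen fibrils, were led by 3 genes. Bgn (biglycan) had 1788 ± 30.8 FPKM, Lum (lumican) 1245 ± 21.6 FPKM and Dcn (decorin) 641 ± 4.57 FPKM, and the next, Prelp, had 92.7 ± 2.87 FPKM. Ogn was listed at 0, 0 and 0.17 FPKM and Kera at 0 in each library. Among larger proteoglycans Vcan (versican) had 212 ± 5.32 FPKM and Acan, the aggrecan of cartilage, had 24.1 ± 0.81 FPKM.

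Matricellular proteins, which modify how cells hold the matrix, were listed together with the matrix proteins fibronectin and Mgp. This list made up 1.49 ± 0.0222% of the sum, with 23 of 26 genes detected, against 65.6% of all genes. Fn1, fibronectin, had 2897, 2907 and 2818 FPKM and ranked 17. Sparc, which binds collagen, had 2422, 2455 and 2459 FPKM. Mgp, an inhibitor of calcification, had 1091 ± 18.1 FPKM, Thbs1, thrombospondin-1, 943 ± 1.93 FPKM and Spp1, osteopontin, 747, 758 and 760 FPKM. Of this list, 5 genes had 500 FPKM or more, all of them secreted proteins. Tnn, tenascin-W, had 366, 365 and 361 FPKM and lay above Tnc, tenascin-C, at 163, 163 and 159 FPKM in each library. Postn, periostin, had 36.9 ± 1.08 FPKM. Of the elastic fibre genes, Efemp2 (251 ± 4.78 FPKM), Ltbp2 (169 ± 4.96 FPKM) and Fbn1, fibrillin-1 (119 ± 3.21 FPKM), were well above Eln, elastin itself, at 8.35 ± 0.367 FPKM, and Efemp1 was at 0.10 FPKM.

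The enzymes that fold and cross-link collagen were detected in 22 of 23 cases, against 65.6% of all genes. Serpinh1, the collagen chaperone of the endoplasmic reticulum, had 1564 ± 20.2 FPKM, Pcolce, which helps remove the collagen propeptide, 724 ± 15.1 FPKM, and the cross-linking enzyme Lox 667 ± 13.1 FPKM. All 3 prolyl hydroxylase α subunits were present, P4ha1 at 279 ± 4.62, P4ha3 at 121 ± 2.03 and P4ha2 at 105 ± 0.830 FPKM. Crtap, which works in a complex with the prolyl 3-hydroxylase P3h1 (88.8 ± 2.31 FPKM), had 2.17, 0.42 and 1.36 FPKM.

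Matrix-degrading genes and their inhibitors were present together at rest. Lysosomal cathepsins led the proteases, with Ctsl at 1388 ± 29.7 FPKM and Ctsb at 649 ± 10.2 FPKM. Mmp2, a gelatinase, had 567, 571 and 564 FPKM, Mmp14, which activates it at the cell surface, 240 ± 5.04 FPKM, Mmp3, stromelysin-1, 196, 191 and 199 FPKM, and Mmp13, a collagenase, 73.2 ± 0.654 FPKM. The gelatinase Mmp9 had 0.61, 0.61 and 0.55 FPKM. Of the aggrecanases, Adamts5 had 31.8 ± 0.272 FPKM and Adamts4 3.23 ± 0.131 FPKM. Among inhibitors, Timp1, which blocks metalloproteinases, had 507 ± 5.15 FPKM. Timp2 had 323 ± 14.1 FPKM and Timp3 had 4.51, 4.67 and 4.43 FPKM, so that Timp1 exceeded Timp3 by a ratio of 112 ± 4.11.

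**Figure D2:**
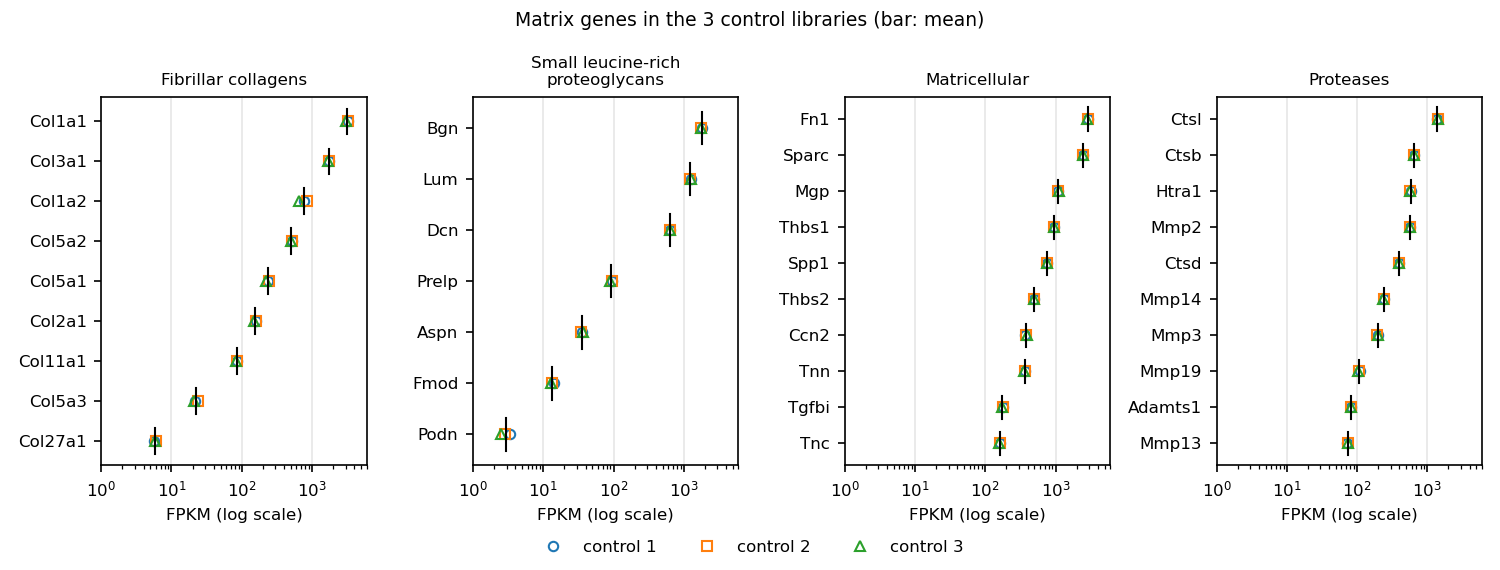
FPKM on a log axis of the leading genes of 4 matrix lists, with 1 symbol per control library and a bar at the mean. The symbols of a gene nearly coincide, apart from Col1a2, which ran from 643 to 857 FPKM.

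Integrins, the matrix receptors, were led by their common β1 chain. Itgb1 had 573, 554 and 569 FPKM, Itgb5 119 ± 2.40 FPKM, Itga5, which with β1 binds fibronectin, 85.2 ± 1.74 FPKM, and Itga11, which with β1 binds collagen, 58.4 ± 2.09 FPKM. The other collagen-binding α chains were lower, with Itga1 at 3.84, Itga2 at 1.07 and Itga10 at 0.29 FPKM. Of the leukocyte chains, Itgb2, Itgam and Itgal were under 1 FPKM, and Itgax was just above it at 1.01 FPKM.

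Receptors for growth factors, cytokines and other signals were present at lower levels than matrix genes: the 163 receptor genes held 0.467 ± 0.00846% of the sum. Of these, 105 were detected, where 65.6% of all genes in the table were. Of the 36 receptor tyrosine kinases and related growth factor receptors, 22 (61.1%) were detected. Axl, the receptor for Gas6, had 184, 192 and 182 FPKM. Pdgfra had 147, 146 and 150 FPKM and lay above Pdgfrb (89.1, 87.9 and 85.1 FPKM) in each library, a ratio of 1.69 ± 0.0607. Fgfr1 had 91.2 ± 2.10 FPKM and Ddr2, a receptor for fibrillar collagen, 54.2 ± 1.44 FPKM. Egfr had 12.8 ± 0.411 FPKM, Igf1r 9.41 ± 0.197 FPKM and Met 2.88 ± 0.0961 FPKM, and Kit, Csf1r, Kdr, Flt1 and Tek were under 1 FPKM.

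The cytokine receptor with the highest level was Il1rl1, the ST2 receptor for IL-33. Il1rl1 had 228, 222 and 234 FPKM, followed by Tnfrsf12a, the TWEAK receptor, at 214, 223 and 219 FPKM, and these ranges overlapped. Il6st, the gp130 chain shared by receptors of the IL-6 family, had 172, 167 and 165 FPKM, and Tnfrsf1a, the main TNF receptor, had 144, 137 and 134 FPKM. Il6r, which joins Il6st to bind IL-6, was far lower at 3.33, 3.57 and 3.23 FPKM, and so was the other TNF receptor, Tnfrsf1b, at 11.5, 11.5 and 10.9 FPKM, giving ratios of 49.9 ± 2.72 for Il6st to Il6r and 12.3 ± 0.309 for Tnfrsf1a to Tnfrsf1b. For the cytokine used elsewhere in the study, the signalling receptor Il1r1 had 31.2, 30.8 and 31.3 FPKM, its accessory chain Il1rap had 7.10, 6.97 and 6.77 FPKM, and the decoy Il1r2 had 0.083 FPKM in the mean. Il1rl1 thus lay 7.35 ± 0.145 times above Il1r1, as a level per gene that does not tell apart forms of its transcript. Receptors of the OSM, IL-11, IL-13, IL-17 and interferon families were also detected, among them Osmr (51.4 ± 1.39 FPKM), Il11ra1 (46.0 ± 1.89 FPKM), Il13ra1 (32.8 ± 0.793 FPKM) and Ifngr1 (34.1 ± 1.23 FPKM).

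In the TGF-β and BMP family 11 of 14 receptors (78.6%) were detected, against 65.6% of all genes. Tgfbr2 led at 71.3 ± 1.64 FPKM, and Tgfbr1 had 12.3 ± 0.190 FPKM. For Wnt, Fzd1 had 121 ± 0.928 FPKM and Ryk 108 ± 2.81 FPKM, while Fzd7 had 0.11 FPKM. Lgr5, an R-spondin receptor used as a stem cell marker in epithelia, had 11.9, 11.9 and 11.4 FPKM. Ptch1, a target and receptor of Hedgehog signalling, had 2.81 ± 0.0808 FPKM and the Hedgehog target factor Gli1 0.05 FPKM.

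Of 39 G-protein-coupled receptors, 23 (59.0%) were detected, against 65.6% of all genes. Lpar1, for lysophosphatidic acid, had 62.2 ± 0.649 FPKM, and F2r, the thrombin receptor, had 57.8 ± 0.890 FPKM. Ptgfr, for prostaglandin F, had 35.0 ± 0.782 FPKM and exceeded the prostaglandin E receptors Ptger4 (2.83 ± 0.263 FPKM) and Ptger2 (1.77 ± 0.186 FPKM). Ackr3, the scavenger receptor for Cxcl12, had 39.3 ± 1.72 FPKM, whereas the signalling receptor Cxcr4 had 0.15 FPKM. In the innate sensor list 8 of 13 genes (61.5%) were detected. Tlr2 had 21.1 ± 0.775 FPKM and Tlr4 3.05 ± 0.191 FPKM, and Myd88, the adaptor of most of these receptors, had 22.0 ± 0.793 FPKM.

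**Figure D3:**
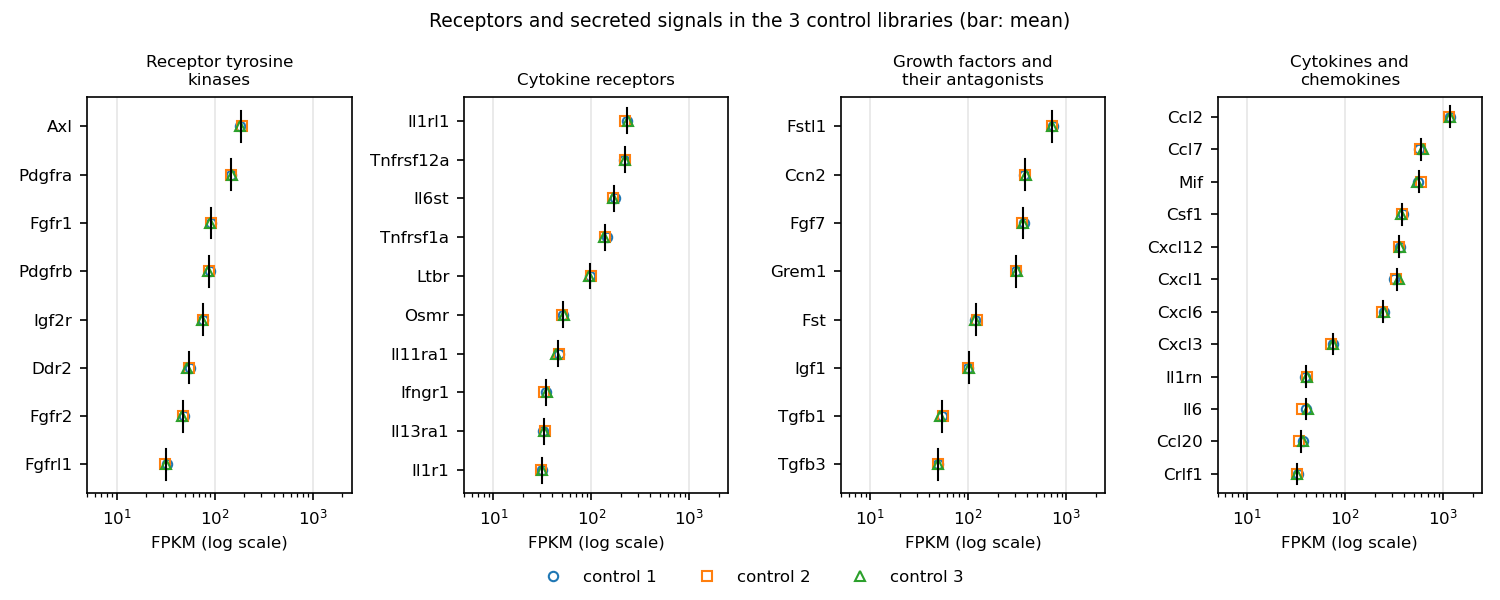
FPKM on a log axis of the leading receptor, growth factor and cytokine genes, with 1 symbol per control library and a bar at the mean. Ccl2 stands highest at 1161 to 1189 FPKM, and Il1rl1 and Tnfrsf12a overlap at the top of the cytokine receptors.

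Growth factors and their antagonists were detected in 41 of 56 cases (73.2%), against 65.6% of all genes. Fstl1, a secreted follistatin-like protein, had 727, 717 and 723 FPKM, and Ccn2 (the row named Ctgf), connective tissue growth factor, had 369, 377 and 387 FPKM. Fgf7, keratinocyte growth factor, had 370, 354 and 365 FPKM, 19.9 ± 0.604 times the level of the related Fgf10 (18.2 ± 0.833 FPKM). The BMP antagonist Grem1 had 307 ± 3.82 FPKM against 4.18 ± 0.285 FPKM for Bmp4, a ratio of 73.8 ± 5.94, and Bmp2 had 1.37 FPKM. Other BMP antagonists, Nog and Chrd, lay below Bmp4, at 3.31 and 1.31 FPKM. Igf1 had 101 ± 0.794 FPKM and Igf2 0.22 FPKM. Of the 3 TGF-β genes, Tgfb1 (53.6 ± 1.69 FPKM) and Tgfb3 (48.8 ± 0.251 FPKM) were above Tgfb2 (13.0 ± 0.681 FPKM). Gdf5, a factor of joint formation, had 0.22 FPKM, and Fgf2 had 0.52 FPKM.

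Wnt ligands and secreted Wnt antagonists were low, with 9 of 25 (36%) detected against 65.6% of all genes. Sfrp2, Sfrp1 and Sfrp4, which bind Wnts outside the cell, had 15.2 ± 0.338, 15.2 ± 0.358 and 14.9 ± 0.333 FPKM, and the Wnt with the highest level, Wnt5a, had 6.85 ± 0.325 FPKM. Among the IGF-binding proteins Igfbp7 (146 ± 5.49 FPKM) and Igfbp6 (133 ± 2.29 FPKM) led, and Igfbp5 and Igfbp2 had 1.52 and 0.11 FPKM.

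Some chemokine messages were abundant without added cytokine, and others were near 0. In all, 23 of 46 cytokine and chemokine genes were detected, a smaller share than the 65.6% of all genes. Ccl2, which attracts monocytes, had 1165, 1161 and 1189 FPKM and ranked 107, and Ccl7, which shares its receptor, had 568, 579 and 627 FPKM. Csf1, the growth factor of macrophages, had 383 ± 6.61 FPKM. The neutrophil attractants Cxcl1 and Cxcl6 had 336 ± 20.2 and 245 ± 5.82 FPKM, and the related Cxcl3 and Cxcl2 had 74.6 ± 1.93 and 0.07 FPKM. Cxcl10, Ccl3, Ccl11 and Ccl4 had means of 0.65, 0.28, 0.25 and 0.20 FPKM. Il6 had 40.0, 36.7 and 41.9 FPKM, and the IL-1 receptor antagonist Il1rn had 38.9, 41.1 and 40.9 FPKM, ranges that overlap. Of other cytokines, Mif had 567 FPKM, while Il1a, Il1b and Tnf had 0.057, 0.057 and 0.04 FPKM in the mean. Whether any of these ligands set the chemokine levels was not tested. Il10, Csf2, Ccl5 and Cxcl11 were listed at 0 in each library.

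Early complement genes were detected as well. C1r had 286 ± 8.34 FPKM and C1s 211 ± 2.92 FPKM, the proteases of the classical pathway, whereas C1qb and C1qc, chains of the C1q recognition molecule that macrophages make, were listed at 0 in each library. C3, the central component, had 5.65 ± 0.439 FPKM. In all, 16 of 23 complement genes (69.6%) were detected, near the 65.6% of all genes.

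Transcription factor genes held 0.526 ± 0.0103% of the sum. Of 231 such genes 162 were detected, where 65.6% of all genes in the table were. The highest mesenchymal factors were Prrx1, a homeobox factor of limb mesenchyme, at 234, 223 and 229 FPKM, and Prrx2 at 164, 163 and 167 FPKM, a ratio of 1.39 ± 0.0345. Snai1 (97.0 ± 4.54 FPKM) and Twist1 (80.1 ± 3.26 FPKM), factors of mesenchymal cells, followed, with Nfix at 70.5 ± 1.36 FPKM. The 46 of 55 members detected (83.6%) included Pitx1, Tbx15, Osr1 and Shox2, each between 27.3 and 41.3 FPKM.

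Genes known for position in the limb and along the body differed widely in level. Pitx1, known for hindlimb identity, had 42.3, 42.0 and 39.6 FPKM. Tbx4, the hindlimb T-box gene, had 24.3, 22.3 and 23.1 FPKM against 2.2, 2.72 and 1.98 FPKM for the forelimb gene Tbx5, a ratio of 10.3 ± 1.85. The labels do not name the joint. In the Hox clusters, whose genes are known to mark position along the body and limb, Hoxc10 (14.4 ± 0.671 FPKM), Hoxd8 (13.4 ± 0.542 FPKM), Hoxa10 (12.1 ± 0.131 FPKM) and Hoxa11 (11.6 ± 0.0153 FPKM) were highest. Hoxa9, Hoxc9, Hoxd9 and Hoxd10 had 5.28, 5.82, 4.85 and 3.11 FPKM. None of the 6 Hoxb genes with a row was detected, against 65.6% of all genes, Hoxb9 having 0, 0.26 and 0.22 FPKM. Hoxa13, the most distal gene of its cluster, was listed at 0 in each library. The rows of Hoxa5, Hoxa9 and Hoxa10 had the same values as other rows named LOC, so these levels cannot be assigned to 1 gene.

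Factors of the inflammatory and growth response were also detected in these unstimulated cells. Cebpd and Cebpb, C/EBP factors that act on acute-phase and cytokine genes, had 198 ± 1.72 and 138 ± 4.27 FPKM. Ctnnb1, β-catenin, had 175 ± 2.27 FPKM, Junb 116 ± 3.51 FPKM, Stat3 77.1 ± 2.06 FPKM and Yap1, the mechanosensitive co-activator, 53.5 ± 0.916 FPKM. The NF-κB subunits Nfkb1 and Rela had 35.0 ± 0.605 and 27.3 ± 2.32 FPKM, and the lymphoid-type subunit Rel had 0.97 FPKM. Immediate early genes were uneven: Ier3 had 48.9 ± 2.65 FPKM and Egr1 18.5 ± 0.132 FPKM, while Fos had 3.48 FPKM and Fosb 0.22 FPKM. Among nuclear receptors the retinoic acid receptor Rarg (49.6 ± 3.06 FPKM) and Nr2f2 (45.5, 43.0 and 46.6 FPKM) led, the glucocorticoid receptor Nr3c1 had 25.5 ± 0.759 FPKM, and the estrogen receptor Esr1 and the progesterone receptor Pgr had 0.31 and 0.67 FPKM.

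**Figure D4:**
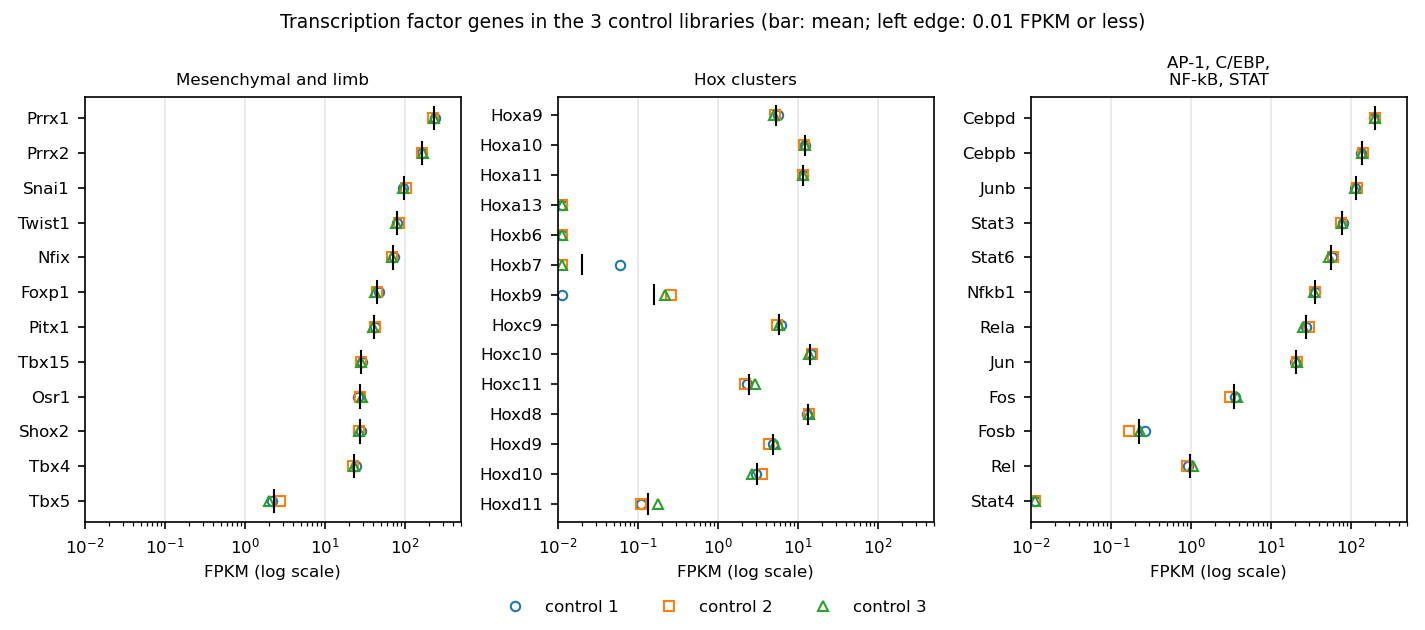
FPKM on a log axis of transcription factor genes, with 1 symbol per control library and a bar at the mean, where values of 0.01 FPKM or less are drawn at the left edge. Hoxa9 to Hoxa11, Hoxc9 to Hoxc11 and Hoxd8 to Hoxd10 lie between 2.2 and 15 FPKM, and the 3 Hoxb genes shown at 0.26 FPKM or less.

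Most markers of blood cells were near 0. At most 29.4% of a blood cell list given here (macrophage and monocyte) was detected, against 65.6% of all genes. Osteoclasts, which share their origin with macrophages, are given below with the bone cells. None of 9 T and NK cell genes was detected, and their summed level was 0.75 to 1.11 FPKM over the libraries. The pan-leukocyte gene Ptprc (CD45) had 0.10 FPKM. Of 17 macrophage genes 5 were detected, Cd14 at 12.9, 13.5 and 14.0 FPKM, Lyz2 at 11.4, 9.65 and 10.9 FPKM, and Cd68, Fcer1g and Tyrobp between 1.49 and 2.30 FPKM in the mean, while Csf1r had 0.34 FPKM, Adgre1 0.49 FPKM and Cd163 0.03 FPKM. Sdc1 (84.8 ± 1.04 FPKM), a syndecan that marks plasma cells but is also made by other adherent cells, was the only 1 of 5 B and plasma cell genes detected, and Ms4a1 (CD20) was listed at 0 in each library. Pf4, a platelet chemokine, had 1.07, 7.55 and 4.39 FPKM, lowest in library 1 and highest in library 2, and was the only 1 of 4 erythroid and platelet genes detected. Of 7 mast cell and granulocyte genes S100a8 alone was detected, at 2.09, 1.74 and 0.71 FPKM, and Kit, the mast cell receptor, had 0.62 FPKM.

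Endothelial and epithelial markers were likewise low, with 11.1% and 22.2% of the listed genes detected against 65.6% of all genes. Of 18 endothelial genes 2 were detected, Ramp2 at 16.8, 15.1 and 12.6 FPKM and Egfl7 at 14.0, 13.7 and 14.1 FPKM, while the defining genes Pecam1, Cdh5, Kdr, Tie1 and Vwf had means of 0.19, 0.16, 0.18, 0.06 and 0.02 FPKM. Of 18 epithelial genes 4 were detected, led by Krt7 at 7.65 ± 0.606 FPKM and Pkp1 at 6.78 ± 0.153 FPKM, and Epcam had 0.10, 0 and 0 FPKM. Schwann cell and melanocyte genes were detected in 3 of 13 cases, of which S100b had 71.7, 72.2 and 76.0 FPKM, while Sox10 had 0.02, 0 and 0 FPKM. Neuronal genes were detected in 2 of 11 cases, Tubb3 at 4.82 and Stmn2 at 1.74 FPKM.

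Lists of other connective tissue, muscle and bone cell types were each detected in part. The pericyte and smooth muscle list, at 69.2%, lay near the 65.6% of all genes. The chondrocyte, osteoclast, osteoblast and skeletal muscle lists were lower, at 46.7%, 44.4%, 36.4% and 25%. Of 13 pericyte and smooth muscle genes 9 were detected: Tagln, an actin-binding protein, had 290, 291 and 297 FPKM and Acta2, smooth muscle actin, 155, 156 and 163 FPKM, while Myh11, the smooth muscle myosin, had 1.33 FPKM and the pericyte genes Kcnj8 and Abcc9 were under 0.1 FPKM. Cytoplasmic Actb exceeded Acta2 by a ratio of 23.5 ± 0.942. Of 15 chondrocyte genes 7 were detected, with Col2a1 at 157 ± 6.39 FPKM, Acan at 24.1 ± 0.81 FPKM and Sox9, the cartilage factor, at 5.74 ± 0.0781 FPKM, while Col9a2 and Col11a2 had 0.22 and 0.32 FPKM and Matn1 was listed at 0. Of 11 osteoblast genes 4 were detected, Spp1 among them, and Alpl, Ibsp and Bglap were under 1 FPKM. Of 12 skeletal muscle genes 3 were detected, Des, Myod1 (3.51, 4.62 and 3.92 FPKM) and Tnnt3, and Myog was listed at 0 in each library. Of 9 osteoclast genes 4 were detected, with the protease Ctsk at 58.2 ± 1.9 FPKM and the acid phosphatase Acp5 at 4.58 ± 0.502 FPKM, while Tnfrsf11a, the RANK receptor, was listed at 0.

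The adipocyte list had the largest share of detected genes among the 15 lists of other cell types. Of its 15 genes 13 (86.7%) were detected, against 65.6% of all genes. Fabp4, a fatty acid carrier, had 561, 547 and 588 FPKM and ranked 195. Cfd, adipsin, had 159, 155 and 155 FPKM, and the secreted hormones Retn, resistin, and Adipoq, adiponectin, had 47.1, 40.6 and 44.5 FPKM and 37.3, 37.8 and 40.9 FPKM. These values were close between libraries, and they came with the lineage factors Cebpa (42.4 ± 1.69 FPKM) and Pparg (14.0, 15.2 and 15.6 FPKM) and the lipid droplet gene Plin1 (16.4 ± 0.256 FPKM). Lep, leptin, was listed at 0 in each library, and Ucp1, of brown fat, had 0.21 FPKM. Whether fibroblasts or fat cells held these messages was not tested.

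**Figure D5:**
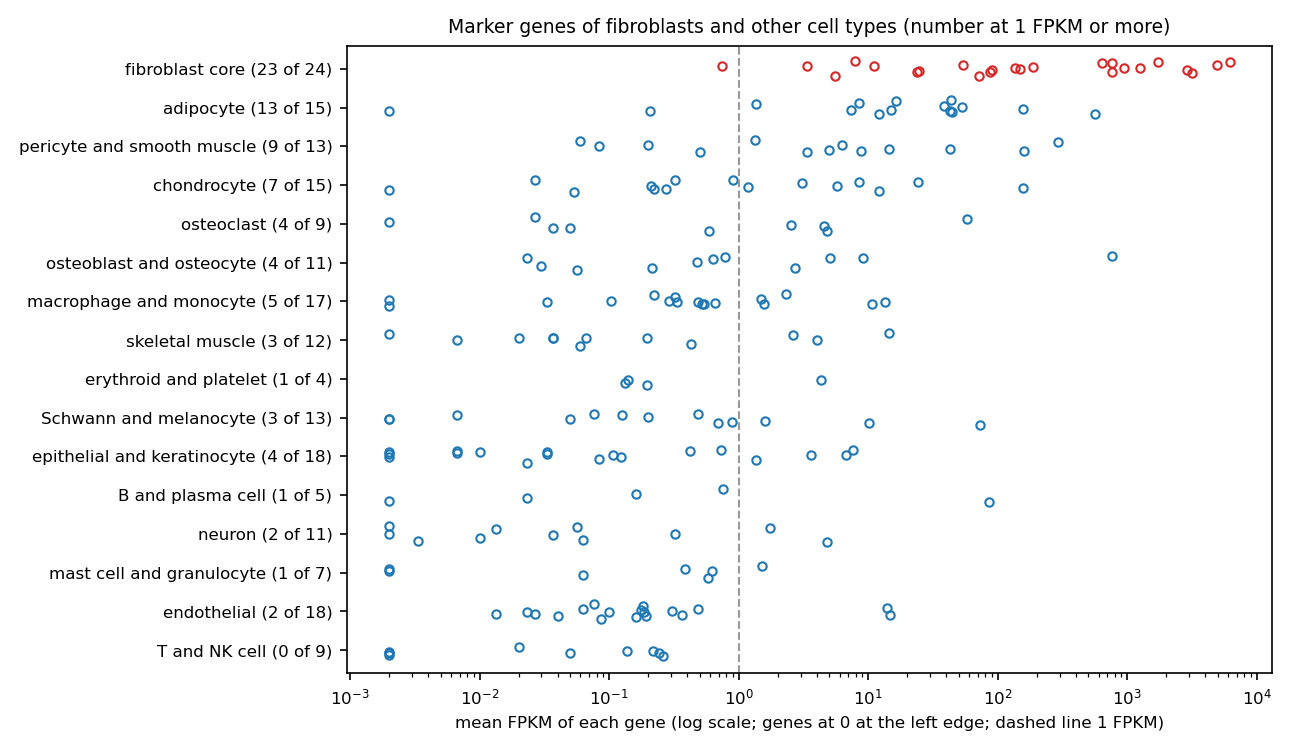
Mean FPKM on a log axis of each marker gene with a row, for fibroblasts (top) and 15 lists of other cell types, with the number of genes at 1 FPKM or more beside each name. The T and NK cell genes all lie left of the dashed line at 1 FPKM, and 13 of 15 adipocyte genes lie right of it.

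The cells carried the messages of division and of glycolysis. Each count of detected genes below stands against 65.6% of all genes in the table. All 33 cell cycle genes were detected, with Rrm2, which makes DNA precursors, at 283, 281 and 287 FPKM, Cdk1, the mitotic kinase, at 189, 195 and 204 FPKM, and Mki67 at 40.3, 38.6 and 41.2 FPKM. All 14 cell cycle inhibitor genes with a row were detected too, with Cdkn1b at 58.0 ± 1.97 FPKM, Cdkn1a at 41.2 ± 0.947 FPKM and Cdkn2a at 8.84 ± 0.278 FPKM. Gapdh led glycolysis at 4809, 4838 and 4798 FPKM, and all 18 listed genes of that pathway were detected. Ldha, which makes lactate, lay 173 ± 8.30 times above Ldhb. The folding machinery of the secretory pathway was detected in 22 of 22 cases, led by the calcium-binding chaperone Calr at 1712 ± 8.78 FPKM, and oxidative phosphorylation genes in 23 of 24, led by Atp5f1b (the row named Atp5b) at 807 ± 24.4 FPKM. The metallothioneins Mt2A and Mt1, which bind zinc and copper, had 1746 ± 28.2 and 903 ± 32.2 FPKM. Ferritin light chain exceeded the heavy chain, with Fth1 to Ftl1 at 0.486 ± 0.0112.

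Small shifts between the libraries ran through whole gene groups. In library 3, 60 of the 78 ribosomal protein genes had their highest value, against 4026 of 11352 detected genes, and their share of the sum was 19.6%, 19.8% and 20.4% in libraries 1, 2 and 3. All 9 detected fibrillar collagens were highest in library 2 and 8 of 9 lowest in library 3, where their share was 0.914% against 0.997% and 1.01%. Of the 17 detected network and other collagens, 13 were highest in library 2 and 15 lowest in library 3. Over all 11352 detected genes, 3647 were highest in library 2 and 3791 lowest in library 3. The source of these shifts was not tested.

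A few rows were split between near-identical copies, and their levels are uncertain. Wbp11 had 32.26, 0.10 and 32.03 FPKM and its copy Wbp11l1 had 6.86, 39.8 and 6.88 FPKM, yet the sum of the pair was 39.1, 39.9 and 38.9 FPKM. Rps19 had 150 FPKM in the mean, while the pair formed with a further row of that name summed to 2005 ± 34.3 FPKM. Atp5pb, a subunit that mitochondrial ATP synthase needs, was listed at 0 in each library, so a gene at 0 in this table may be a failed estimate. Of the 6779 genes at 10 FPKM or more, 39 had a coefficient of variation over 25%, and 26 of these were named LOC, which marks loci with no assigned symbol. The genes with the lowest variation were St3gal2 (40.0 FPKM in each library), Rab28, Brd8, Ext2 and Hmgcs1.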

How the data were processed

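The authors deposited FPKM values for 17298 genes, per the file headers, with 2 decimals, and the 3 control columns were used as deposited. Per the labels' protocols, messenger RNA was selected by its poly(A) tail, and complementary DNA was primed with random hexamers and turned into circular libraries. The read aligner and the gene models were not given in the sources used here. The only build in the submitters' processing notes is GRCm38, of mouse, while the rows carry rat gene identifiers, of which 93.4% were found in RefSeq GRCr8. Because the aligned sequence is unsettled, comparisons between genes are weaker than comparisons of 1 gene between libraries. Depth is unknown, and the precision rests on the spread between 3 libraries.

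Means, SDs, ranks and shares were computed with Python 3.11.15, pandas 2.3.3 and numpy 2.4.6, and tested on simulated data. No test between groups was run. Neighbours in an order were said to overlap where their ranges over the 3 libraries did. Of 1289 listed genes in 62 lists, 1194 had a row, 19 of them matched by gene identifier, and 95 had no row in the table used here. The lists were chosen with earlier results of these data known. Any listed gene could be named, the highest first, and beyond the lists the 30 highest genes and the 5 with the lowest and highest variation at 10 FPKM or more. Further copies were named after their values were seen. A few listed genes are not reported here. Promoters came from RefSeq GRCr8: 75.5% of genes and 90 of the 121 genes at 1000 FPKM or more had one, under 80%, so a comparison of motifs by level is void and not given, and no protein sequences were used here. The alternatives tried are given in the closing section.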

Additional observations from a re-analysis of the deposited data

How the results depend on the processing

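The number of genes detected stayed within 1.5 times of 11352 under each alternative run, from 10516 (at least 2 FPKM) to 12061 (at least 0.5 FPKM). Without ribosomal protein and translation factor genes, the top 10, 100 and 1000 genes held 7.78%, 26.7% and 61.8% of the sum. The lowest Pearson correlation between libraries was 0.9923 with a pseudocount of 0.1 in place of 1, and 0.9946 over genes of at least 1 FPKM. TATAAA occurred in 3.88% of promoters when the 60 bases before the start were searched. Shares by gene class moved by less than 1 SD with a median over libraries and with each library left out. With 3 values such a shift is always under 1 SD, so this says nothing about how stable the shares are. Of the 62 counts of detected list members, 58 stayed within 1.5 times at 0.5 FPKM and 59 at 2 FPKM, the exceptions being the macrophage (8 and 3), B and plasma cell (2 at 0.5), mast cell and granulocyte (3 and 0), Schwann and melanocyte (5 at 0.5) and neuron lists (1 at 2). With each control library left out in turn, all 62 counts stayed within 1.5 times. Without the translation genes S100a4 ranked 1, Col1a1 8, Thy1 75, Pdpn 474, Prg4 1054 and Cdh11 1437. No paired analysis was possible because no groups were compared and no test was run. Depth is unknown, levels under 1 FPKM had a median coefficient of variation of 55.8%, and the values are relative within a library.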
